A study of Mus musculus with 4 samples.

Results

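The HoxD cluster and its regulatory landscapes were described here as every accessible region centred in a window of 1800 kb on mouse chromosome 2 (mm9) around the gene cluster. The window held 51 of the 42613 regions listed for forelimb buds at embryonic day (E) 9.5 and 63 of the 46765 regions listed at E10.5. The cluster itself holds 10 member genes, Evx2, Hoxd13, Hoxd12, Hoxd11, Hoxd10, Hoxd9, Hoxd8, Hoxd4, Hoxd3 and Hoxd1, and each region was assigned to the protein-coding gene with the nearest transcription start.

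The regions were found by ATAC-seq, which uses a transposase to tag accessible DNA with sequencing adapters. Both stages were wild-type NMRI embryos, with 2 replicates per stage, and each replicate was the forelimb bud pair of 1 embryo. The earlier samples are titled E9.5, their protocol also gives E9.75, and part of the trunk was left on the limb buds. The E10.5 samples were forelimb buds without named trunk tissue, although their tissue label also lists hindlimb buds. Stage and attached trunk cannot be told apart in any comparison below. The replicates of a stage were combined into 1 list by the authors, so sequencing depth is unknown, no value has a replicate error, and no difference between the stages was tested. Shared regions are those with 1 bp or more in common with the list of the other stage, and all the rest are called stage-specific. All 7 limb bud mesenchyme markers examined had an accessible promoter in both lists. The same was true of the 4 neural tube markers that could be matched of 5 listed, and of 5 of 5 somite markers. Regions nearest to the neural tube markers numbered 25 at E9.5 and 24 at E10.5, of which 4 and 1 were stage-specific. Regions nearest to the somite markers numbered 38 and 36, of which 14 and 12 were stage-specific. For the limb bud mesenchyme markers the numbers were 80 and 101, of which 20 and 37 were stage-specific. Of 3 hindlimb markers, all had an accessible promoter at E9.5, and Pitx1 lacked one in the E10.5 list. The part of trunk or hindlimb cells in the HoxD results was not tested.

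Hox genes encode homeodomain transcription factors that pattern the body axis and the limbs. In the HoxD cluster their order along the chromosome follows the order in which they are activated and the position at which they act. The genes at the 3′ end, such as Hoxd1, Hoxd3 and Hoxd4, act early and anteriorly, and those at the 5′ end, such as Hoxd11, Hoxd12 and Hoxd13, act late and posteriorly. In limb buds the cluster is contacted by enhancers on both flanks. The gene desert 3′ of Hoxd1 drives the early phase that serves the arm and forearm, and the desert 5′ of Evx2 drives the late phase that serves the digits. Evx2, a homeobox gene related to even-skipped, lies beside Hoxd13 and is transcribed from the opposite strand. On the plus strand of chromosome 2 the 5′ side of the cluster has the lower coordinates.

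The sequences that carry the stage-specific pattern are given here from the mm9 reference assembly (plus strand, 5′ to 3′), which is not the sequence of the NMRI embryos. Each is the middle of a region with 100 bases on either side, and the middle of a region need not be its point of highest signal. The score by which they were chosen is 10 times the negative log10 of the best p-value of a region in either replicate. Letters in capitals mark a match to 1 of the motifs searched, and a match is a description of the letters and not a binding site. The first trio is the highest-scoring E9.5-specific region of the 5′ side, the cluster and the 3′ side, in that order, and of the stretches printed only the first holds a match, to the PBX-HOX motif. With 150 bases on either side, the stretch used for the motif counts given last, the first also held the GLI motif and the second a PBX-HOX motif.
chr2:73967675-73967875: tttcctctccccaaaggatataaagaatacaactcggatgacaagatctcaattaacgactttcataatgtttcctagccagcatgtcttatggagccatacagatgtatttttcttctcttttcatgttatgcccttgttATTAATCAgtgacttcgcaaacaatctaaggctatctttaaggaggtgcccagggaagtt
chr2:74572456-74572656: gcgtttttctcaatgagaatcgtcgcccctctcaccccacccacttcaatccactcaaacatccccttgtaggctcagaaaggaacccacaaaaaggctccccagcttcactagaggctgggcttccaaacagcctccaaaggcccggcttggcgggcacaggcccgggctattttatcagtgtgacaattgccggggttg
chr2:74859897-74860097: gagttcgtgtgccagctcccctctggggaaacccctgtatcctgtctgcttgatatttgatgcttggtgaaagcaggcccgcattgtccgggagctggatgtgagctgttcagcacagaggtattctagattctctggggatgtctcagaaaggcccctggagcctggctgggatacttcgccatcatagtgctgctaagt

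The next trio gives the highest-scoring E10.5-specific region of the 5′ side, the cluster and the 3′ side, and none of the stretches printed held a motif searched. With 150 bases on either side, the first held the MEIS motif and the third the core of the CTCF motif.
chr2:74218909-74219109: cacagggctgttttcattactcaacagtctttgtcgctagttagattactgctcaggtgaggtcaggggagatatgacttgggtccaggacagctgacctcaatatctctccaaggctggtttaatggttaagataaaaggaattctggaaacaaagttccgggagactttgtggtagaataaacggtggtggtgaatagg
chr2:74527674-74527874: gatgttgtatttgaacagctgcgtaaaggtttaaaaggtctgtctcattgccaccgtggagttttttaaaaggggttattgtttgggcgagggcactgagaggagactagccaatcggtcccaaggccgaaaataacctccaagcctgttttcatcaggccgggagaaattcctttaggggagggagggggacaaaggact
chr2:75350866-75351066: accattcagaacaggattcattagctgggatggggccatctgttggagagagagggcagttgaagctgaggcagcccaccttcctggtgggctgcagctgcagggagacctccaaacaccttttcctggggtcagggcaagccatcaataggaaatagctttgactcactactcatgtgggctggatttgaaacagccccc

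A further pair lay in the 3′ desert and was present in both lists but ranked far higher at E10.5. These were the highest-scoring distal shared regions of that side at E10.5 and were chosen after their values were seen. A choice by the E10.5 score favors regions that rank higher at E10.5.
chr2:75277868-75278068: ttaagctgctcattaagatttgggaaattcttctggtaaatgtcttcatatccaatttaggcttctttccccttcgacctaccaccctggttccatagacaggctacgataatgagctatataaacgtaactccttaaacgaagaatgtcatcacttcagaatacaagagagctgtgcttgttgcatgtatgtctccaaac
chr2:75047293-75047493: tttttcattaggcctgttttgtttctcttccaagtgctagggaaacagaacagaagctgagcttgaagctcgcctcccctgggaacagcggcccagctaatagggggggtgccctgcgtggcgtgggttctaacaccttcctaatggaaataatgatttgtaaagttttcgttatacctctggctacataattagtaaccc

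Finally, the 200 bases before the outermost start of 3 genes on the plus strand are shown, a start covered only at E9.5, a start covered only at E10.5 and a start covered at both. All 200 bases upstream of Hoxd4 lay in an accessible region at E9.5 and 0 did at E10.5. Upstream of Hoxd12 the order was opposite, with 0 bases covered at E9.5 and 200 at E10.5, and upstream of Hoxd9 all 200 were covered in both lists. None held a motif searched.
Hoxd4 upstream, chr2:74559835-74560034: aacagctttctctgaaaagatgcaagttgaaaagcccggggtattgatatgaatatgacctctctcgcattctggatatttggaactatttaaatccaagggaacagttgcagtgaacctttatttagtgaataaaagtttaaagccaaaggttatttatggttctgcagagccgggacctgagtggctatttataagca
Hoxd12 upstream, chr2:74512786-74512985: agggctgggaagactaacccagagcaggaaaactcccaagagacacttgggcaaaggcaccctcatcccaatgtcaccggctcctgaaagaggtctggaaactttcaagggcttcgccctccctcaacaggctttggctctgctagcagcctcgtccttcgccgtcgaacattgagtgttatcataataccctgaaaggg
Hoxd9 upstream, chr2:74535537-74535736: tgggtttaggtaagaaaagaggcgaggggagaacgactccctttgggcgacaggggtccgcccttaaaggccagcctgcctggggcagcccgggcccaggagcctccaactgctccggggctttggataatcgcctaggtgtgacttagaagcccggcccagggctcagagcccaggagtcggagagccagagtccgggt

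Regions specific to 1 stage fell in different places of the HoxD window. Of the 51 E9.5 regions, 17 were E9.5-specific (33.3%, 95% Wilson interval 22.0 to 47.0), against 29.9% of all E9.5 regions. Of the 63 E10.5 regions, 28 were E10.5-specific (44.4%, interval 32.8 to 56.7), against 35.0% of all E10.5 regions. Both intervals hold the value of the whole list, and they cover counting error only. The window was therefore near the background of the lists as a whole, and its domains gave different values, which are described in turn. Tiles of the same length across the genome, 1139 at E9.5 and 1276 at E10.5 with at least 10 regions each, held a median of 31 and 35 regions, of which a median of 27.3% and 38.9% were stage-specific.

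The window was divided at the outer ends of Evx2 and Hoxd1 into a 5′ side of 691 kb, the cluster of 112 kb (chr2:74491049-74603200) and a 3′ side of 997 kb. Accessible sequence was less in the cluster at E10.5 than at E9.5 and more on both sides, although on the 5′ side the direction turned among the higher-scoring 50% of each list (4614 bp at E9.5, 2553 bp at E10.5). In the cluster, regions covered 49624 bp at E9.5 but 28828 bp at E10.5, a ratio of 1.72. On the 3′ side they covered 25070 bp and 33904 bp, a ratio of 0.739. On the 5′ side they covered 6896 bp and 9502 bp, a ratio of 0.726. These sums rest on regions called separately at each stage, whose median width in the window was 1318 bp at E9.5 but 970 bp at E10.5, against 1100 bp and 1000 bp in the whole lists. A ratio of covered bases over the whole lists is not given, so the ratios of the domains have no background. The cluster was by far the densest domain, with 21.4 regions per 100 kb at E9.5 against 19.6 at E10.5. The 3′ side had 2.11 and 3.01 regions per 100 kb and the 5′ side 0.868 and 1.59.

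**Figure D1:**
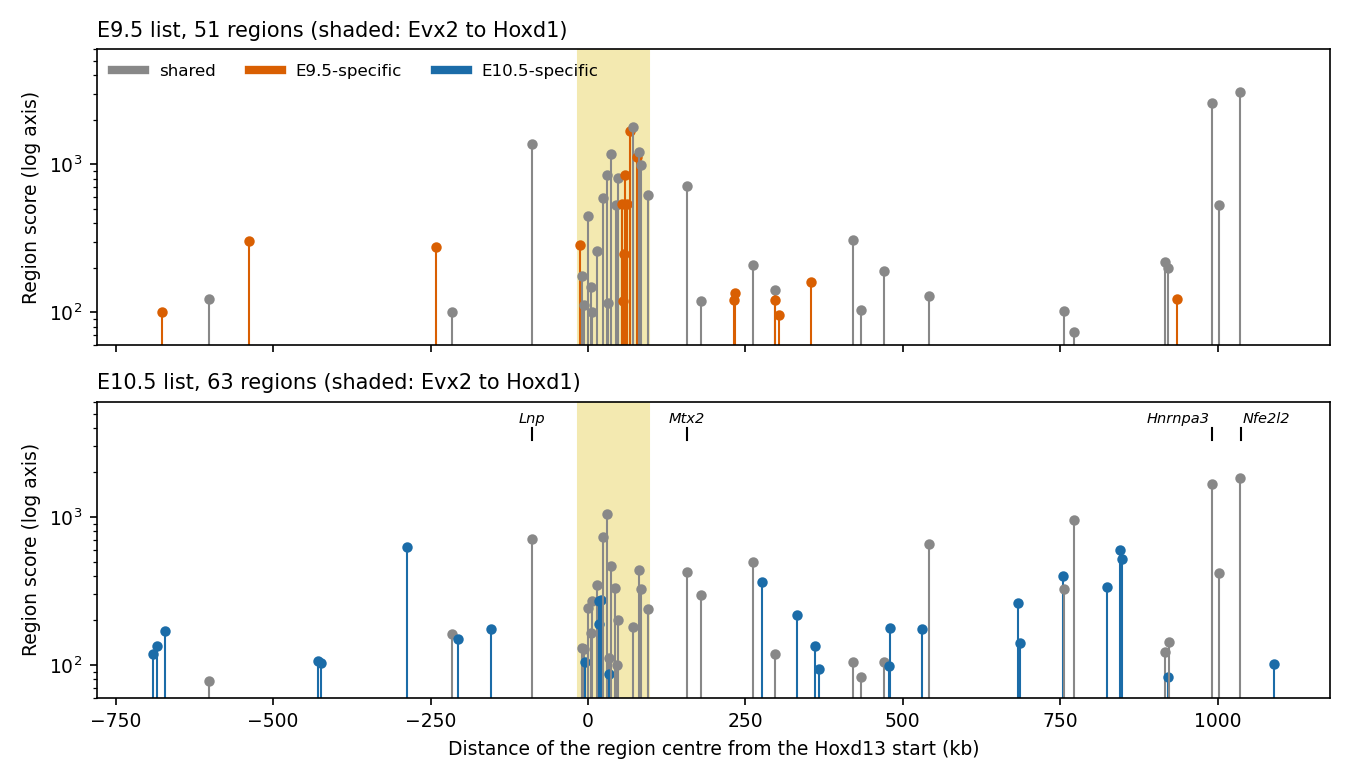
Score of every accessible region of the window (vertical axis, log scale) against the distance of its centre from the Hoxd13 start (horizontal axis, kb), for E9.5 (upper panel) and E10.5 (lower panel). Shared regions are gray, E9.5-specific ones orange and E10.5-specific ones blue, and the shaded cluster holds 24 and 22 regions, the 5′ side 6 and 11, and the 3′ side 21 and 30.

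Within the cluster, the net loss lay in its 3′ part. From the outer end of Evx2 to the start of Hoxd3 (58937 bp), regions covered 30.5% of the sequence at E9.5 and 36.5% at E10.5. From the start of Hoxd3 to the end of Hoxd1 (53215 bp), they covered 59.5% at E9.5 but 13.8% at E10.5. In the latter part every covered base at E10.5 was also covered at E9.5, with 0 bp covered at E10.5 only and 24328 bp covered at E9.5 only. The division into these 2 parts was chosen after the data were seen.

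The counts of regions followed the same division. In the part from Hoxd3 to Hoxd1, 7 of 13 E9.5 regions were E9.5-specific (53.8%, interval 29.1 to 76.8), and 0 of 7 E10.5 regions were E10.5-specific, which allows a share of up to 42.9% (3 counts). In the part from Evx2 to Hoxd8, 1 of 11 E9.5 regions was E9.5-specific (9.09%, interval 1.62 to 37.7), and 5 of 15 E10.5 regions were E10.5-specific (33.3%, interval 15.2 to 58.3). Most cluster regions lay near a start, with 19 of 24 (E9.5) and 14 of 22 (E10.5) within 2.5 kb. The nearest background for those is the promoter-proximal regions of the whole lists, of which 13.1% were stage-specific at E9.5 but 5.31% at E10.5. Distal regions, those farther from a start, have another background, 40.3% (E9.5) and 49.6% (E10.5). From Evx2 to Hoxd8 the E9.5-specific region was distal, 3.46 kb from a start. The E10.5-specific regions there were distal at 2.94, 3.87 and 4.12 kb, and proximal at 1.37 and 2.27 kb. Their share of 33.3% thus mixes both kinds and has no single like background. The count of 0 depends on the overlap rule, since 3 of the 7 E10.5 regions (42.9%) became stage-specific when both regions had to be covered by at least 50%.

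**Figure D2:**
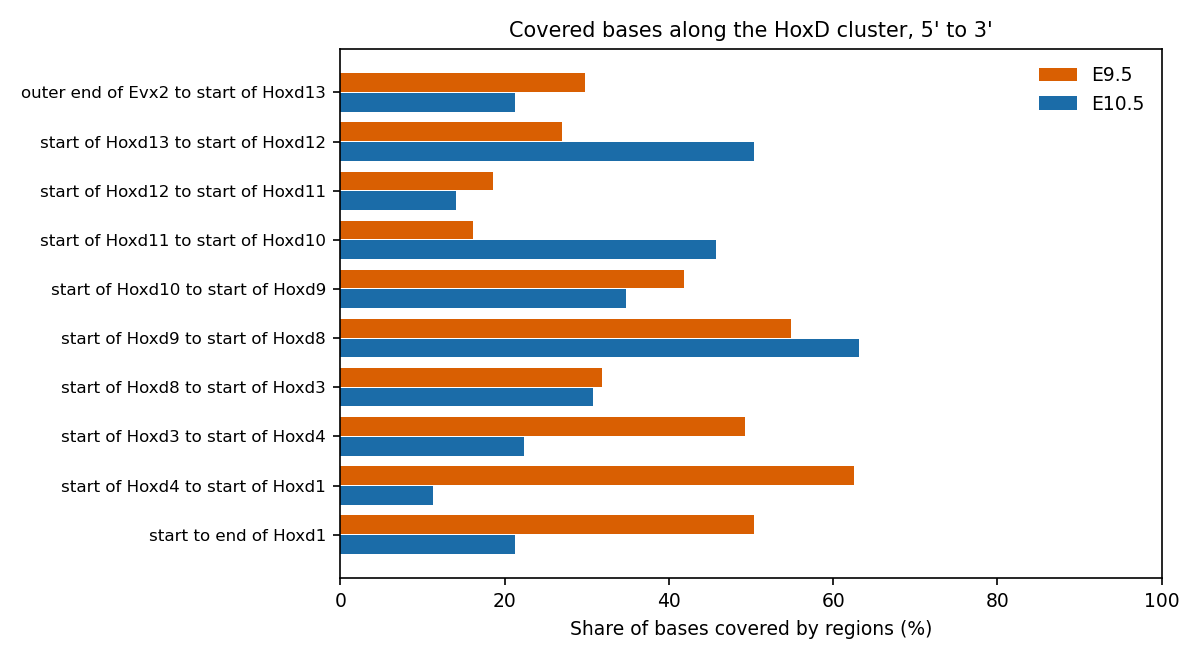
Percent of each stretch of the HoxD cluster that accessible regions covered (horizontal axis, starting at 0), with a bar for E9.5 and one for E10.5 and the stretches between successive gene starts in order from Evx2 to Hoxd1. The stretch from Hoxd4 to Hoxd1 has 62.5% at E9.5 against 11.3% at E10.5, whereas those from Hoxd13 to Hoxd12 and from Hoxd11 to Hoxd10 have 27.0% against 50.4% and 16.1% against 45.7%.

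Hoxd4 and Hoxd3, 3′ genes that pattern the hindbrain and the cervical vertebrae, held 7 of the 8 E9.5-specific regions of the cluster. Hoxd4 (ENSMUSG00000042464.6, chr2:74560035-74567217) was the nearest gene of 3 regions at E9.5, all E9.5-specific, and of 0 regions at E10.5. Accessible regions covered 87.4% of the Hoxd4 gene at E9.5 but 0% at E10.5. The region over its start, chr2:74558763-74560552, had a score of 537.84. This score was higher than that of 67.8% of the regions in the E9.5 list, a value given below as the percentile. The other 2, chr2:74560813-74561938 in an intron and chr2:74564228-74567295 over an exon with untranslated sequence, scored 120.21 and 846.59. The scores of the Hoxd4 regions thus ran from percentile 16.8 to 76.6, and no part of the gene was accessible at the threshold of the E10.5 list.

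Hoxd3 (ENSMUSG00000079277.2, chr2:74549986-74586331) has a long gene model that runs across Hoxd4, and 6 annotated starts. It was the nearest gene of 9 regions at E9.5, of which 4 were E9.5-specific, and of 6 at E10.5, of which 0 were stage-specific. With the starts of genes of any type it was nearest to 4 and 2 regions. All 6 starts lay in a region at E9.5 and 1 did at E10.5, and the covered share of the gene was 72.6% and 10.4%. The E9.5-specific regions nearest Hoxd3 included the widest region of the window. It was 5461 bp wide (chr2:74569826-74575286), with its centre in an intron and a Hoxd3 start inside, and scored 1681.25, at percentile 90.0. The other 3 were chr2:74583204-74585982, with its centre in an exon and a Hoxd3 start inside, chr2:74568066-74569778 and chr2:74562170-74563813. Their scores were 1115.31, 536.33 and 247.81. High scores were rare among stage-specific regions, since 59 of the 12730 E9.5-specific regions of the genome scored 1000 or more, and 2 of those lay in Hoxd3. Across the genome 172 E9.5 regions were at least 5 kb wide, of which 7 were E9.5-specific, and 2 of the 172 lay in Hoxd3. These 2 wide regions lay 45 bp apart, and 1 of them, chr2:74575332-74580485, was shared.

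At E10.5 the longest stretch of the cluster without a region was 23.1 kb, from chr2:74554584 to chr2:74577713, across Hoxd4 and the middle of Hoxd3. At E9.5 the same stretch held 6 whole regions, with scores from 120.21 to 1681.25, and 75.3% of it was covered. All 6 were E9.5-specific by the choice of the stretch, which holds no E10.5 region. The longest empty stretch of the cluster at E9.5 was 8.57 kb, between chr2:74591913 and chr2:74600481. In counts alone Hoxd3 and Hoxd4 were not the only such genes. Of the 15597 genes nearest to any E9.5 region, 6372 were nearest to an E9.5-specific one. Among these, 1427 were nearest to at least 3 E9.5-specific regions and 793 to at least 4.

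**Figure D3:**
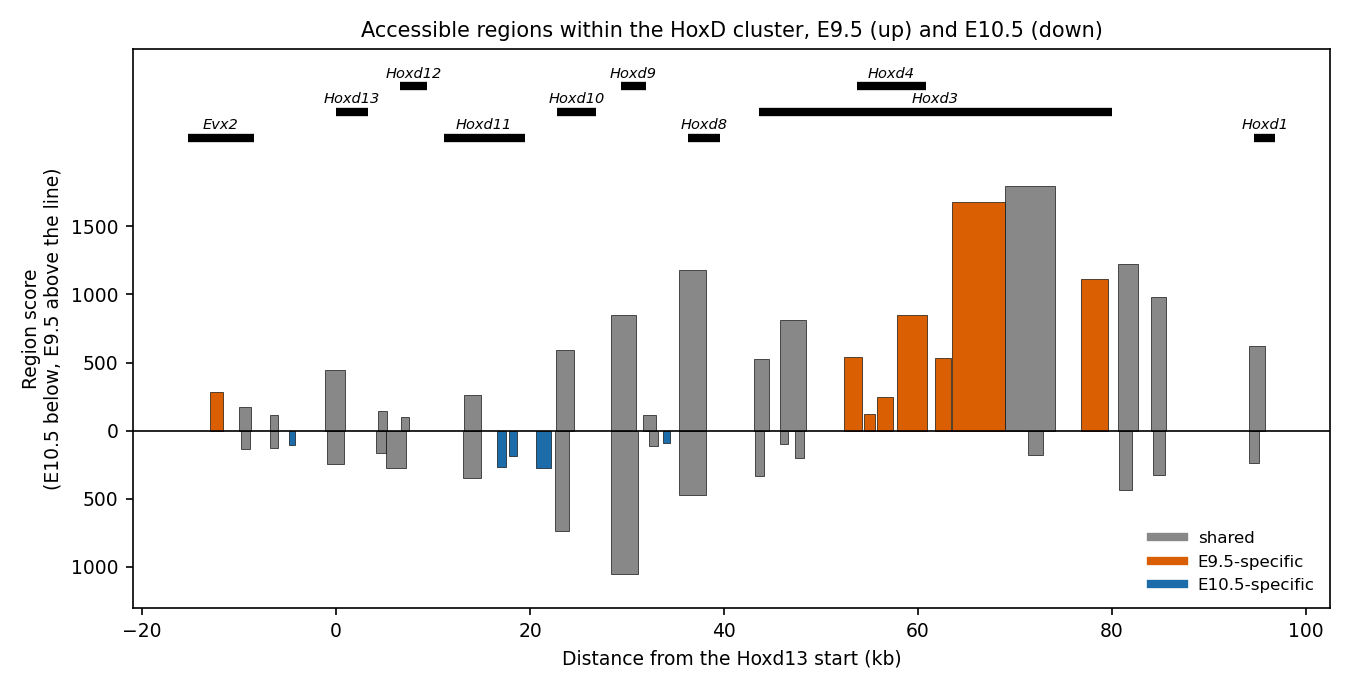
Accessible regions of the HoxD cluster drawn to scale (horizontal axis, kb from the Hoxd13 start), with bar width showing region width and bar height the score, E9.5 above and E10.5 below the line, and the 10 genes as black bars at the top. Shared regions are gray, E9.5-specific ones orange and E10.5-specific ones blue. The side below the line is empty for 23.1 kb, where 6 whole E9.5 regions stand above it, E9.5-specific by the choice of the stretch.

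The shared regions of the 3′ part were also narrower and ranked lower at E10.5. All 6 shared regions from Hoxd3 to Hoxd1 had a lower percentile at E10.5, with a median shift of −20.3 percentile points and a range from −52.6 to −7.10. Over all 29883 shared E9.5 regions the median shift was 0.178 points and 49.4% were lower at E10.5. The 6 regions ranked from percentile 67.4 to 91.1 at E9.5, and shared regions of like rank were not compared. The promoter regions of Lnp, Mtx2, Nfe2l2 and Hnrnpa3 in the window also ranked lower at E10.5, with shifts of −7.00, −6.10, −2.80 and −2.30 points. Percentiles within each list were compared in place of scores because the score grows with sequencing depth. The median score of this part was 809 at E9.5 against 240 at E10.5, at percentiles 75.7 and 49.9.

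The Hoxd3 region chr2:74575332-74580485, with its centre in an intron and a Hoxd3 start inside, shrank most. It was 5154 bp wide with a score of 1793.04 (percentile 91.1) at E9.5, and its partner at E10.5 was 1539 bp wide with a score of 181.09 (percentile 38.5). The region chr2:74552156-74554811, with its centre in a Hoxd3 intron, scored 809.24 at E9.5 and was replaced at E10.5 by 2 narrower regions with scores of 200.25 and 99.39. The region over the outermost Hoxd3 start scored 528.14 at E9.5 and 330.77 at E10.5. Between Hoxd3 and Hoxd1, 2 shared regions overlapped the gene model 6720416L17Rik. Their scores were 1220.54 and 984.0 at E9.5, and 435.42 and 324.05 at E10.5. Hoxd1 (ENSMUSG00000042448.3, chr2:74601037-74603200), the gene at the 3′ end, kept a region over its start. Its score was 621.84 (percentile 70.6) at E9.5 against 240.37 (percentile 49.9) at E10.5, and the covered share of the gene was 50.4% and 21.3%.

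Hoxd8 and Hoxd9 lie in the middle of the cluster, and of the regions over an outermost start that of Hoxd8 scored highest at E9.5 and that of Hoxd9 at E10.5. Hoxd8 (ENSMUSG00000027102.4, chr2:74542672-74545990) had a region over all 3 of its starts in both lists, with a score of 1182.94 (percentile 83.2) at E9.5 and 468.73 (percentile 69.7) at E10.5. The width of that region hardly differed, 2734 bp and 2764 bp. Hoxd8 also gained a weak E10.5-specific region, chr2:74540024-74540776, with a score of 86.71. Hoxd9 (ENSMUSG00000043342.8, chr2:74535737-74538265), which takes part in the early limb phase, had 2 regions in both lists, all shared. The region over its start scored 851.44 (percentile 76.7) at E9.5 and 1051.27 (percentile 87.0) at E10.5, the highest score in the cluster at that stage. The second, 3′ of the gene, scored 116.68 and 112.34, near the low end of both lists.

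The genes of the 5′ part were together nearest to more regions at E10.5 than at E9.5, and the gain lay in Hoxd10 and Hoxd11, since Evx2, Hoxd13, Hoxd12 and Hoxd9 had equal counts. Evx2 and Hoxd9 to Hoxd13 together were nearest to 10 regions at E9.5 with 1 E9.5-specific, and to 13 at E10.5 with 4 E10.5-specific. Hoxd1 to Hoxd8 were nearest to 14 regions at E9.5 with 7 specific, and to 9 at E10.5 with 1 specific. In the part from Evx2 to Hoxd8, the median shift of the 10 shared regions was 9.5 percentile points, with 6 higher and 4 lower at E10.5. Each was paired with its best-scoring overlapping E10.5 region, and both Hoxd12 regions had the same partner, at percentile 54.1. For chr2:74510679-74511582 (percentile 27.6 at E9.5) the other overlapping E10.5 region, chr2:74510438-74511517, was at percentile 33.9, which gives a smaller rise.

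Hoxd10 (ENSMUSG00000050368.3, chr2:74529147-74533163) had 1 E9.5 region and 2 E10.5 regions. The region over its start scored 596.16 (percentile 69.7) at E9.5 and 735.23 (percentile 80.1) at E10.5. The added region, chr2:74527003-74528545, was E10.5-specific with a score of 275.87, and its middle is among the sequences above. Hoxd11 (ENSMUSG00000042499.10, chr2:74517449-74525798), required for the forearm bones together with its HoxA counterpart, had 1 E9.5 region and 3 E10.5 regions. The shared region covered 2 of its 3 starts and scored 258.54 (percentile 49.8) at E9.5 and 347.03 (percentile 61.8) at E10.5. The other 2, chr2:74522982-74523876 and chr2:74524187-74525036, lay over an exon with untranslated sequence and were E10.5-specific, with scores of 269.62 and 188.62. With the starts of genes of any type in place of protein-coding ones, Hoxd11 was nearest to 1 E10.5 region, the same number as at E9.5. The covered share of the gene rose from 21.3% to 43.2%.

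Hoxd12 (ENSMUSG00000001823.4, chr2:74512986-74515763) had 2 regions in both lists, but its start lay in a region only at E10.5. At E9.5, regions of 904 bp and 831 bp with scores of 147.74 and 100.9 lay on either side of the start. At E10.5 a region of 2057 bp with a score of 270.96 (percentile 54.1) spanned it and touched both. Hoxd13 (ENSMUSG00000001819.4, chr2:74506367-74509656), the gene most closely tied to digit formation, already had a region over its start at E9.5. Its score was 448.46 (percentile 63.9) at E9.5 against 242.27 (percentile 50.2) at E10.5, and it was the only gene from Hoxd9 to Hoxd13 whose region over or nearest the start ranked lower at E10.5.

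Evx2 (ENSMUSG00000001815.8, chr2:74491049-74497918) had 3 regions in both lists, 1 of them stage-specific in each. The E9.5-specific region, chr2:74493356-74494673, had its centre in an exon and scored 286.44. The E10.5-specific region, chr2:74501496-74502079, lay between Evx2 and Hoxd13 and scored 104.54. The shared region over 1 of the 3 Evx2 starts scored 176.8 at E9.5 and 130.61 at E10.5, and a shared region upstream scored 112.23 and 128.6. The covered share of Evx2 was 36.9% at E9.5 against 13% at E10.5, the opposite direction to that of Hoxd11.

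The 3′ side, from Hoxd1 to beyond Nfe2l2, gained mainly distal regions at E10.5. It had 21 regions at E9.5, of which 6 were E9.5-specific, and 30 at E10.5, of which 15 were E10.5-specific (50%, interval 33.2 to 66.8). Among distal regions, those over 2.5 kb from a start, 6 of 18 were E9.5-specific (33.3%, interval 16.3 to 56.3), against 40.3% of all distal E9.5 regions. At E10.5, 15 of 27 were specific (55.6%, interval 37.3 to 72.4), against 49.6% of all distal E10.5 regions. Both shares were near their background. The median percentile of all distal regions on this side was 21.9 at E9.5 against 37.7 at E10.5, values that rest on different sets of regions, since most shared regions of the side ranked lower at E10.5.

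The stage-specific regions of the 3′ side differed in score. The 6 E9.5-specific regions were weak, with scores from 95.99 to 160.14, and lay 31.2 to 153 kb from Mtx2, apart from 1 that lay 55.8 kb from Hnrnpa3 (chr2:75441004-75442084, score 123.38). The highest, chr2:74859585-74860409, scored 160.14, followed by chr2:74739701-74740517 with 134.29, and 2 regions that scored 121.97 each. The highest E10.5-specific regions scored 600.56 (chr2:75350518-75351415) and 519.32 (chr2:75353147-75354751) and lay next to each other, 146 and 143 kb from Hnrnpa3. They were followed by chr2:75260579-75261441 with 397.82, chr2:74782935-74783996 with 366.37 and chr2:75330029-75331180 with 337.48. Of these 5 regions, 4 lay in the telomeric part of the desert nearest Hnrnpa3 and 1 lay 76.4 kb from Mtx2.

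In the 3′ desert, 2 shared regions changed rank by more than any shared region of the cluster. The region near chr2:75277578-75278388 was at the foot of the E9.5 list, with a score of 74.32 (percentile 1.18), and scored 955.18 (percentile 85.2) at E10.5, the highest distal region of the side. The region at chr2:75046827-75048072 scored 129.96 (percentile 21) and 661.48 (percentile 77.8). Both are among the sequences printed above. Smaller rises were seen at 75261831 (102.17 to 326.91), 74685430 in a Mtx2 intron (120.17 to 298.35) and 74768419 (208.63 to 496.4), all on chromosome 2. These 5 were the only risers among the 15 shared regions of the side, and 10 ranked lower at E10.5. The farthest fall was at chr2:74927025-74928250, from 309.78 (percentile 55.1) to 105.15 (percentile 10.6). The median shift of the 15 was −2.80 percentile points.

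**Figure D4:**
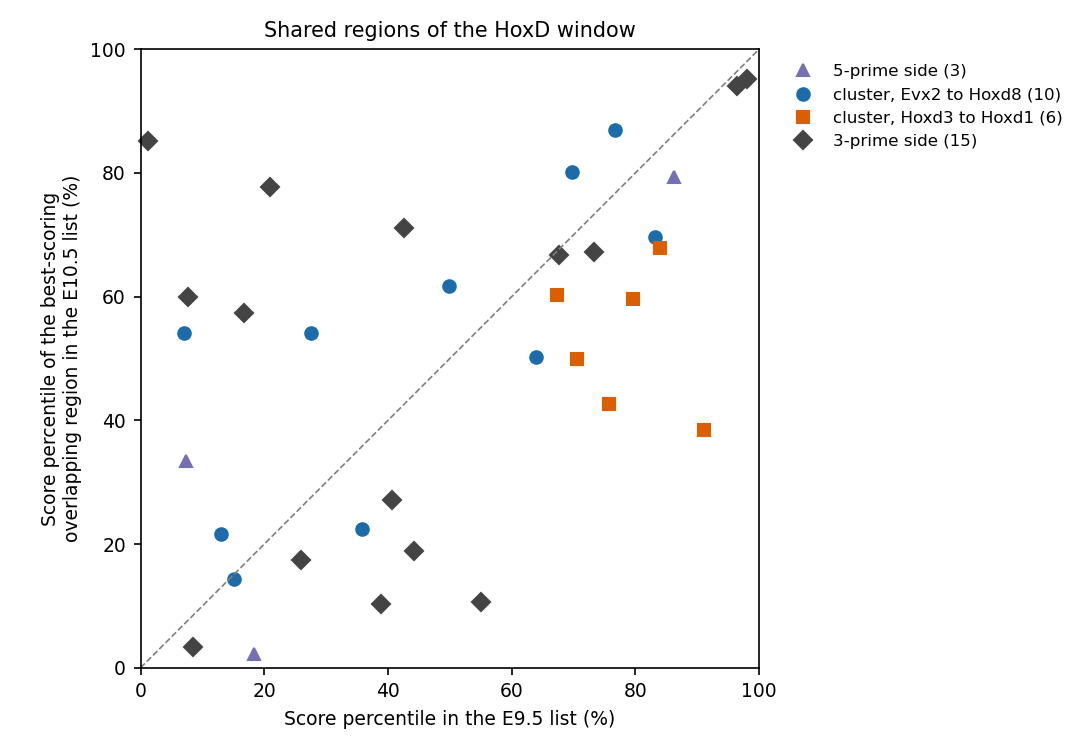
Score percentile of each of the 34 shared E9.5 regions in its own list (horizontal axis, %) against that of its best-scoring overlapping E10.5 region (vertical axis, %), by domain, with a dashed line of equal rank. The 6 regions from Hoxd3 to Hoxd1 all lie under the line, and the region that rose from percentile 1.18 to 85.2 belongs to the 3′ side.

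Promoters of the neighboring genes, which are broadly expressed, were shared and ranked high throughout. The Nfe2l2 promoter (a regulator of the oxidative stress response) scored 3100, the limit of the score, at E9.5 and 1830.86 at E10.5, percentiles 98.0 and 95.2. The Hnrnpa3 promoter (an RNA-binding protein) scored 2608.54 and 1675.13 (percentiles 96.4 and 94.1), and a region 7.80 kb further along scored 534.24 and 417.94. The Mtx2 promoter (a mitochondrial outer membrane protein) scored 714.47 and 424.12 (percentiles 73.3 and 67.2). All 3 promoters had lower scores at E10.5 and stayed in the upper part of both lists.

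The 5′ side held the fewest regions and the largest share of stage-specific ones. It had 6 regions at E9.5, of which 3 were E9.5-specific (50%, interval 18.8 to 81.2), and 11 at E10.5, of which 8 were E10.5-specific (72.7%, interval 43.4 to 90.3). Without the Lnp promoter, 3 of 5 and 8 of 10 distal regions were specific, 60% and 80.0%, with intervals of 23.1 to 88.2 and 49.0 to 94.3. The E10.5 interval had its lower end just under the 49.6% of all distal E10.5 regions, and the E9.5 interval held its background of 40.3%.

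A single E10.5-specific region stood out on the 5′ side by score. It was chr2:74218364-74219654, 152 kb from the nearest Lnp start, with a score of 628.19 at percentile 76.7. The other 7 scored between 103.09 and 174.38, led by chr2:74351652-74352600 with 174.38, chr2:73834939-73835753 with 169.21, chr2:74299272-74300102 with 149.4 and chr2:73820960-73821719 with 134.72. The E9.5-specific regions were chr2:73966790-73968761 with a score of 306.15, chr2:74264534-74265343 with 278.7 and chr2:73829657-73830433 with 100.51. The first lay 218 kb from Atp5g3, a gene for a mitochondrial ATP synthase subunit, and the second 106 kb from Lnp. The shared regions were the Lnp promoter, a membrane protein of the endoplasmic reticulum, with 1378.57 at E9.5 and 709.71 at E10.5, and 2 weak distal regions. Those scored 123.76 and 101.46 at E9.5, and 78.4 and 161.96 at E10.5. Of the sequence covered at either stage, 18.2% was covered at both on the 5′ side, against 38.6% in the cluster and 41.6% on the 3′ side. The value of the 5′ side rests on 6 and 11 regions, nearly all distal, and no like share over the whole lists is given.

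The 3 other Hox clusters gave the HoxD values a scale. At E9.5, 33.3% of HoxD regions were stage-specific, against 35.7% in HoxA, 36.8% in HoxC and 69.0% in HoxB. Over the whole E9.5 list the share was 29.9% of all regions and 13.1% of promoter-proximal ones. At E10.5, HoxD had 5 of 22 E10.5-specific regions (22.7%, interval 10.1 to 43.4), whereas HoxA had 2 of 25 (8%, interval 2.22 to 25.0), HoxB 0 of 10 and HoxC 0 of 14. The counts of 0 allow shares of up to 30.0% and 21.4% (3 counts). Over the whole E10.5 list the share was 35.0% of all regions and 5.31% of promoter-proximal ones. Proximal and distal regions are mixed in HoxD, so neither value is a like background. The covered share fell in every cluster, from 44.2% to 25.7% in HoxD, from 38.6% to 21.2% in HoxA, from 33.1% to 16.5% in HoxC and from 31.2% to 6.06% in HoxB. HoxD had the highest covered share at both stages and the lowest ratio between them, 1.72 against 1.82 to 5.14. Loss of cover at single genes was not particular to HoxD. The covered share of the gene fell from 70.5% to 24.8% in Hoxa3, from 62.3% to 0% in Hoxb7 and from 69.6% to 0% in Hoxb8. Hoxa10 was the only gene of the other clusters with a rise, from 23.8% to 39.2%, and Hoxc12 had 0% at both stages. The intervals of HoxD and the others overlapped at E10.5, and the difference between clusters was not tested.

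**Figure D5:**
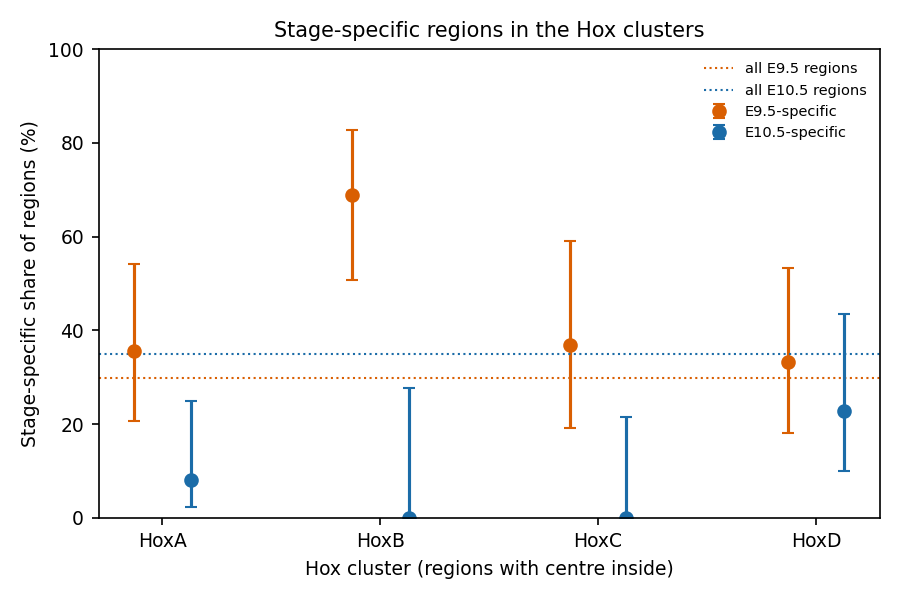
Stage-specific share of the regions in each Hox cluster (vertical axis, %), with 95% Wilson intervals as bars and the share over all regions of each list as dotted lines. At E10.5 HoxD lies at 22.7%, above HoxA at 8% and HoxB and HoxC at 0%, with overlapping intervals.

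The regions of the window differed in base composition by domain. With 150 bases on either side of the centre, the median GC content of cluster regions was 60.6% at E9.5 against 61.0% at E10.5. On the 3′ side it was 47.8% and 46.7%, and on the 5′ side 50.3% and 45.2%. The E10.5-specific regions of the window had a median of 45.5% (interval of the median 43.5 to 47.8), below the 56.8% of the shared E10.5 regions (interval 48.5 to 61.8) and beside a median of 47.2% over all distal E10.5 regions.

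The share of regions with a given motif was near that of the whole lists in the window as a whole, and the SMAD motif GGCGCC was more frequent in the cluster than in the whole lists. In the same stretch and on both strands, the PBX-HOX motif TGATTNAT was present in 4 of 51 E9.5 regions (7.84%, against 4.95% of all) and in 5 of 63 E10.5 regions (7.94%, against 6.10%). The MEIS motif TGACAG was in 10 of 51 (19.6%, against 21.5%) and in 12 of 63 (19.0%, against 20.8%). The letters AGGGGGC or AGGTGGC, the core of the CTCF motif, were in 7 regions at each stage, 13.7% against 20.3% at E9.5 and 11.1% against 18.5% at E10.5. The SMAD motif GGCGCC was in 11 of 51 (21.6%, against 13%) and 8 of 63 (12.7%, against 11.2%). The posterior HOX motif CAATAAAA, the GLI motif TGGGTGGTC and the SMAD motif GTCTAGAC were each in 2 or fewer regions at either stage. In all 14 comparisons of the window at this length the share of the whole list lay inside the 95% interval of the window. With 250 bases on either side the exception was GGCGCC at E9.5, in 15 of 51 regions (29.4%, interval 18.7 to 43.0, against 18.1%). The regions with GGCGCC lay mainly in the cluster, which with 150 bases on either side held it in 9 of 24 E9.5 regions (37.5%, interval 21.2 to 57.3) and 7 of 22 E10.5 regions (31.8%, interval 16.4 to 52.7). Its letters are all G or C, and the higher GC content of the cluster regions is given above, but the part of GC content in these shares was not tested. Cluster regions were also more often promoter-proximal, 79.2% at E9.5 and 63.6% at E10.5, against 38.3% and 32.9% of the whole lists. Over all distal regions the motif was in 5.91% and 4.56%, below the whole lists. The cluster was not set against promoter-proximal regions, so its higher share has no like background here. For the other motifs at this length, the whole-list share lay outside the interval of a domain in 3 cases, each resting on 1 or 2 regions: GLI on the 5′ side at E9.5, and at E10.5 posterior HOX on the 5′ side and GTCTAGAC in the cluster.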

How the data were processed

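ATAC-seq of 2 stages with 2 replicates each was analysed from 1 combined region list per stage. Per the labels, the submitters' processing notes name Bowtie 1.1.0, MACS 1.4 and mm9. The authors kept uniquely mapped reads with up to 2 mismatches, called regions in each replicate without a control library and combined replicates with MSPC (stringent p 1e-10, weak p 1e-06). The deposited score is the −log10 of the lowest p-value MACS gave in either replicate, multiplied by 10, and grows with depth, and the lowest scores were 60.52 and 60.44. Depth is unknown.

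Regions were counted and overlapped with Python 3.11.15, numpy 2.4.6, pandas 2.3.3 and scipy 1.17.1. The annotation was GENCODE vM1 on NCBIM37, the assembly of mm9, with 22380 protein-coding genes and 70064 starts. Promoter-proximal means a centre within 2.5 kb of a start. The overlap and counting steps were checked on simulated regions. Shares carry 95% Wilson intervals. A score percentile is the percent of the list with a lower score. No test was possible, since the 2 replicates of a stage share 1 list.

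The members and lists were chosen with earlier results of these data known. Named were the 10 member genes, every other nearest gene, every region of the cluster, and on each side the 5 highest-scoring regions and the 5 highest-scoring stage-specific regions of each list. Sequences were those of the highest-scoring stage-specific regions. The windows of the highest-scoring shared region of both sides lie in a UTR and were not printed. The promoters shown, a pair of distal shared regions and other values beyond this rule were chosen after values were seen. The overlap rule, score minimum, window bounds, nearest-start rule and promoter distance were varied.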

Additional observations from a re-analysis of the deposited data

How the results depend on the processing

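Of 90 alternatives for summary results, 81 stayed within the 95% interval or within 1.5 times the value reported, and 9 moved. Intervals of small counts are wide, such as 18.8 to 81.2 for the E9.5-specific share of the 5′ side. Large changes inside such an interval were not counted as moves. Widening the cluster by 10 kb on both sides took in no further region, so those counts could not change. The count of 81 is therefore not a measure of robustness. Keeping the higher-scoring 50% of each list gave 8 of the 9. The E9.5-specific share became 50% in the window and 56.2% in the cluster, and the E10.5-specific share became 57.1% in the window and 73.3% on the 3′ side. The covered length became 10367 bp at E9.5 on the 3′ side, and at E10.5 2553 bp on the 5′ side (where the 4614 bp at E9.5 were then the larger length, opposite to the full lists), 18681 bp in the cluster and 20796 bp on the 3′ side. This setting removes regions and partners by construction. No whole-list stage-specific share is given under this or the other settings. The altered shares therefore cannot be set against the 29.9% and 35.0% of the full lists. Requiring a reciprocal overlap of 50% made 42.9% of the E10.5 regions from Hoxd3 to Hoxd1 stage-specific, where the E9.5 partners are wider. The alternatives for the 2 parts of the cluster were chosen after seeing the data. Of 120 alternatives for single genes, 12 moved, among them Hoxd3, with 3 E10.5-specific regions under reciprocal overlap, and Hoxd10, with 0 when regions within 500 bp counted as shared. With starts of any gene type, E10.5 regions nearest Hoxd11 numbered 1, and regions nearest Hoxd3 numbered 4 at E9.5 and 2 at E10.5. With 250 bases on either side of the centre, the GGCGCC share of the window at E9.5 was 29.4%, with 18.1% in the whole list.

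Depth is unknown, and absence from a list means only that no region passed its threshold. No paired analysis was possible because the replicates of a stage share 1 combined list, and leaving out a replicate was not run for the same reason.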
